A study of Mus musculus with 10 samples.

Results

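Transcript levels in irradiated mouse lung were compared between the first week and the later months after exposure. The libraries were chosen by treatment and time alone, and comprise the 5 irradiated pools among the 10 libraries of the series. The acute group joined the irradiated pools taken at 24 hours and at 1 week, the late group joined those of 12 and 32 weeks, and the pool of 4 weeks was kept apart as a point between them. Irradiated animals had received 12.5 Gy of γ-radiation over the whole thorax, whereas controls matched for age had received 0 Gy and were taken at the same 5 times. All groups were of the inbred laboratory strain C57BL/6J, and the labels name no other allele or agent. Each library held the RNA of 3 mice pooled from a cell suspension of the whole lung, and there was 1 pool for each time and treatment. The 2 pools of a phase therefore differ in time as well as in animals, and every p-value below measures the spread between such pools, in which biological and technical spread cannot be told apart.

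Irradiated libraries held 12713412 to 17473108 fragments before the authors' scaling, and a floor of 3 counts corresponded to 0.229 to 0.251 CPM (counts per 1e6 counts of a library, with libraries scaled by the trimmed mean of M-values, TMM). The suspension carried markers of the main lung cell types in every irradiated pool, with at least 4965 CPM of Sftpc (alveolar type 2 cells), 2700 of Scgb1a1 (club cells of the airway), 119 of Pecam1 (endothelium) and 57.2 of Marco (alveolar macrophages). Haemoglobin transcripts took 4.8% and 6.57% of the counts in the acute pools and 3.76% and 2.1% in the late pools. Control lung had a similar course, with 4.05% and 6.67% at the acute times and 3.3% and 0.8% at the late times. Mitochondrially encoded transcripts took 1.72% at 24 hours and 1.15% to 1.28% in the other 4 irradiated pools. They took 1.693% in the 24-hour control and 1.475% to 2.163% over all 5 controls. In a bulk suspension, fewer cells of a type and less RNA per cell cannot be told apart, and this holds for every result below.

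The gas-exchange surface of the lung is made of flat alveolar type 1 cells and cuboidal type 2 cells, which lie on a capillary network held by fibroblasts. Type 2 cells make surfactant, the lipid and protein film that keeps alveoli open, and they also act as progenitors that renew the alveolar epithelium. Thoracic irradiation is known for an early response to DNA damage that passes through the p53 pathway, for a loss of dividing and lymphoid cells, and for delayed pneumonitis and fibrosis.

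Late irradiated lung was set apart from acute irradiated lung by lower transcripts of the alveolar epithelium and by higher transcripts of antibodies, antigen presentation and mast cells. Of 16786 genes tested, 308 (1.83%) passed edgeR's quasi-likelihood F test at a Benjamini-Hochberg adjusted p below 0.05. At an unadjusted p below 0.05, 7.2% of genes were higher and 8.47% lower late. Among the 308 genes, 221 fell from acute to late (1.32% of genes tested) and 87 rose (0.518%). The genes that fell were protein coding in 216 cases, and their median log2 change was −1.68. Of the genes that rose, 54 were immunoglobulin genes (47 variable and 7 constant segments) and the other 33 were protein coding, with a median log2 change of 2.71 over all 87. In the plot of change in irradiated against control lung, 220 of the genes that fell and 86 of those that rose have a larger change in irradiated than in control lung, a comparison that shares its values with the choice of the genes.

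**Figure D1:**
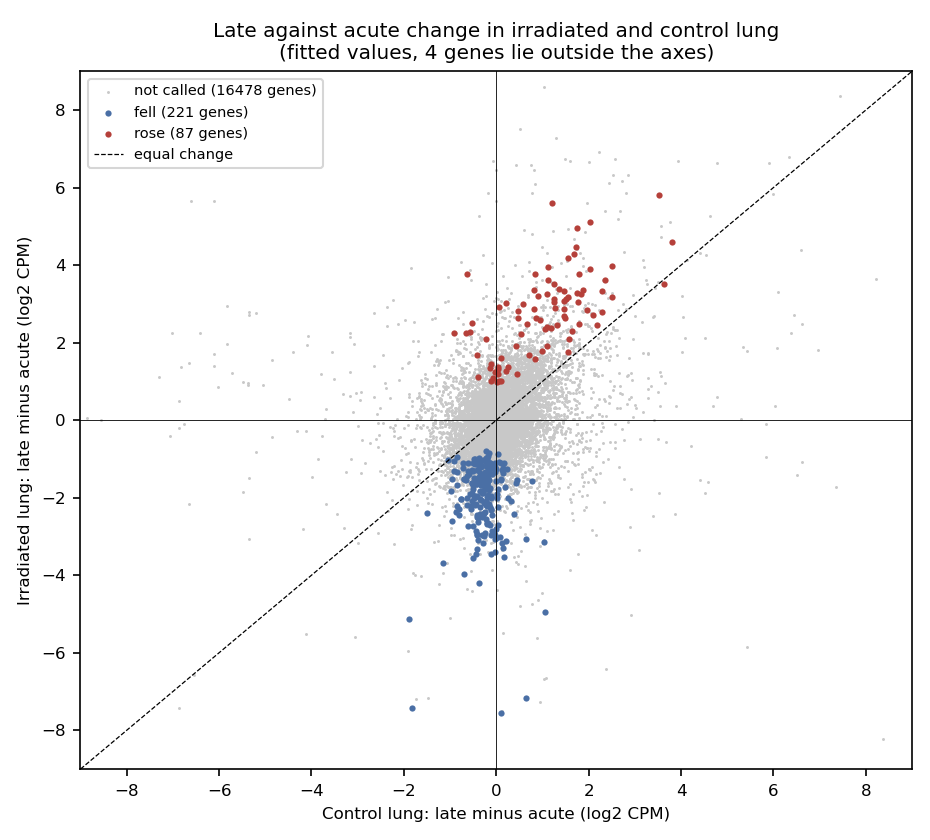
Each point is 1 of 16786 genes, with the fitted log2 change from acute to late in the 4 acute and late control pools on the horizontal axis and in the 4 acute and late irradiated pools on the vertical axis. Blue points are the 221 genes that fell and red points the 87 that rose in irradiated lung by edgeR at an adjusted p below 0.05, grey points did not pass, the dashed line marks equal change, and 4 genes lie outside the axes.

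The same contrast in unirradiated lung gave no call at this threshold with edgeR, where 416 genes were higher (2.48%) and 345 lower (2.06%) late at an unadjusted p below 0.05 and the smallest adjusted p was 0.255. DESeq2 called 23 genes there. The fitted change in control lung had the same sign for 188 of the 221 genes that fell, with a median log2 change of −0.27, and for 74 of the 87 that rose, with a median of 1.09. The test of the difference between the change in irradiated and in control lung passed for no gene with edgeR (smallest adjusted p 0.0651, for Acoxl and Etv5), with 435 genes higher (2.59%) and 733 lower (4.37%) at an unadjusted p below 0.05. DESeq2 called 32 genes higher (0.236%) and 92 lower (0.68%) in that test, of 13531 with an adjusted p. A difference from the change in control lung was therefore not shown by the main test for any single gene named below.

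The call of a gene in irradiated lung rested on few pools. This held for the rises above all, since every call left without the 24-hour pool was of a gene lower late. Refitting without the 24-hour pool left 27 calls, all among the 308, without the 1-week pool 74, without the 12-week pool 707 and without the 32-week pool 246, in fits where the lone remaining pool of a phase is assumed to vary like the other groups. Without the 24-hour control pool 139 genes passed and without the 1-week control pool 145. A fit of the 5 irradiated pools alone, with 2 residual degrees of freedom, kept 40 calls, of which 38 were lower late.

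The balance of directions depended on the fit as well. Against 87 genes higher and 221 lower late in all pools, the refit without the 12-week pool gave 432 higher and 275 lower. With no filter on low counts 845 genes were higher and 834 lower, with DESeq2 451 and 560, and with limma 123 and 148 on log2(FPKM + 1), the authors' values per length and depth, or 119 and 139 on log2(FPKM + 0.1). Higher calls outnumbered lower ones in the refit without the 12-week pool and, narrowly, with no filter on low counts. DESeq2 and both limma fits kept more lower calls. So did the refits without each of the other acute or late irradiated pools. The 5 irradiated pools alone gave 2 higher and 38 lower. An excess of lower over higher calls was therefore common to most of these fits, but not to all.

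Before the single genes, the lists of cell type and pathway genes show how the calls were spread. Of 20 alveolar type 2 markers, 16 fell, against 1.32% of all genes tested. Endothelial markers fell in 6 of 31, alveolar type 1 markers in 5 of 17, p53 target genes in 3 of 30 and fatty acid synthesis genes in 3 of 21. Lists can share members, and Fasn, an enzyme of fatty acid synthesis, is among the 16 type 2 markers. Rises came to 7 of 18 plasma cell markers, 6 of 20 dendritic cell and MHC class II genes, 4 of 11 mast cell and basophil markers, 2 of 20 B cell markers and 2 of 22 T cell markers, against 0.518% of all genes tested. No member of the lists of mitosis, replication, interferon-stimulated, ciliated cell, cardiac muscle or ribosomal protein genes passed in either direction, and at most 1 member did so in the lists of collagen, complement, senescence and repair genes.

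**Figure D2:**
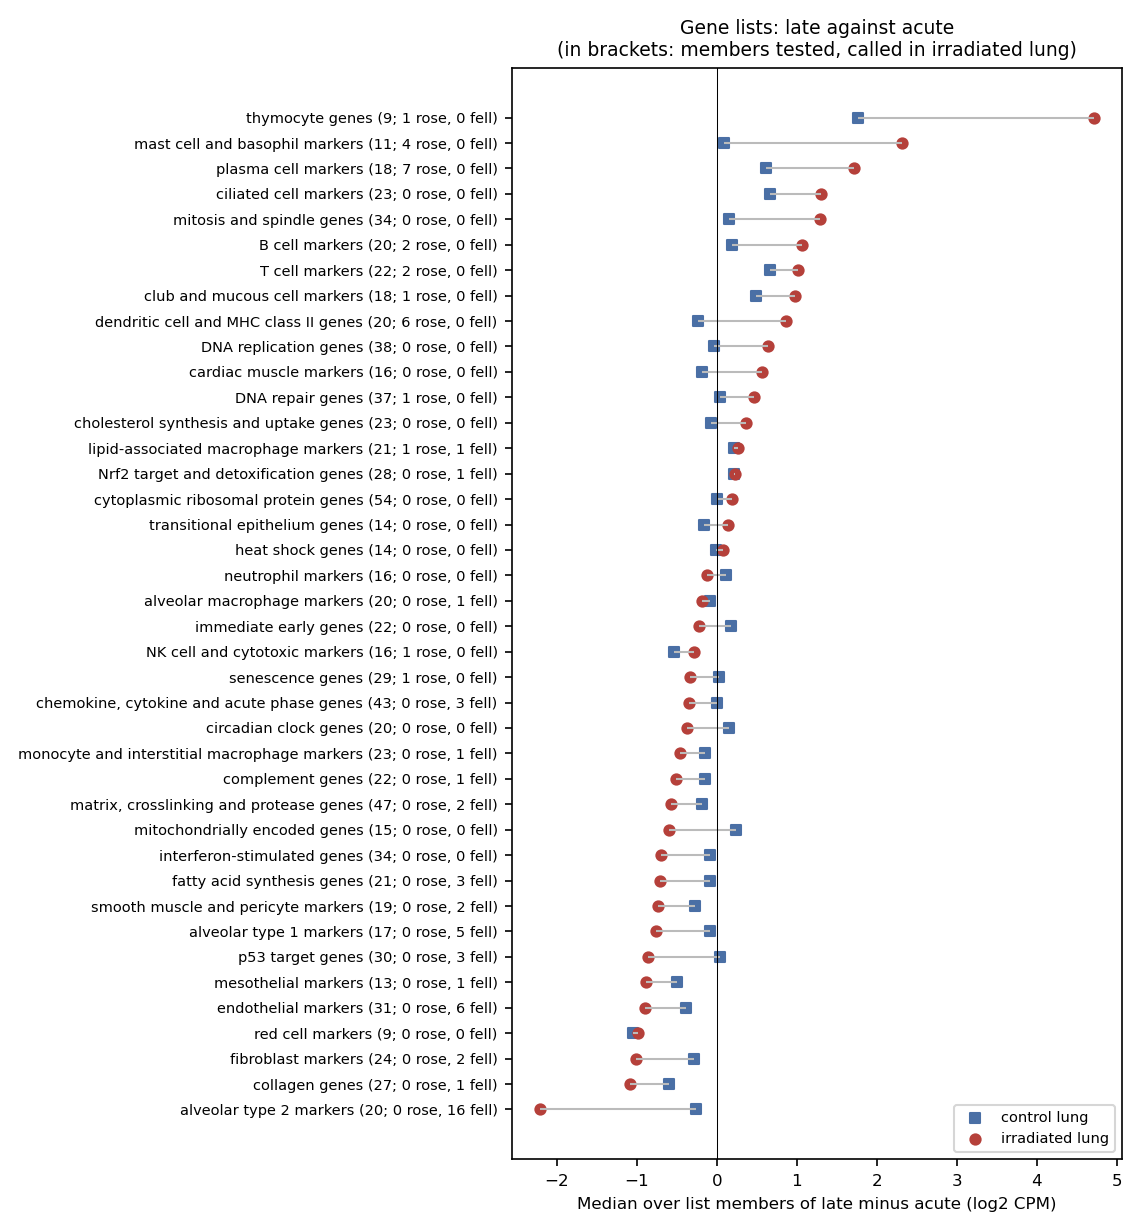
For each gene list, the red point is the median over its members of the log2 change from acute to late in irradiated lung and the blue square the same in control lung, with the members tested and the calls of each direction in irradiated lung in brackets. Alveolar type 2 markers lie lowest with a median of −2.21 against −0.26 in controls, and thymocyte genes highest with 4.72 against 1.76.

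Genes of the surfactant proteins fell together. Sftpc, which encodes surfactant protein C and lies at chr14:70520949-70524081 on the minus strand of GRCm38, was measured at 43270 and 43750 CPM in the acute pools, 31710 at 4 weeks, and 4965 and 5919 in the late pools, while the 5 controls lay between 18470 and 32410. Both acute pools thus stood above every control and both late pools below every control. The fitted change was −3.00 ± 0.30 on the log2 scale (SE, edgeR adjusted p 0.00456).

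Sftpa1, which encodes the collectin surfactant protein A, was at 8664 and 9679 CPM acutely, 7350 at 4 weeks, and 1517 and 1690 late, with controls between 3052 and 6219. Sftpd, its relative surfactant protein D, was at 1388 and 1433 CPM acutely, 1263 at 4 weeks, and 260 and 315 late. Sftpb, the small hydrophobic protein that spreads the film, was at 1012 and 496 CPM acutely, 363 at 4 weeks, and 86 and 109 late. The groups did not overlap for any of these 3 genes, although the acute pools of Sftpb lay far from each other. They fell by 2.52 ± 0.29, 2.30 ± 0.27 and 2.95 ± 0.50 on the log2 scale (SE, edgeR adjusted p 0.00688, 0.00751 and 0.0257).

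The promoters of the 2 surfactant genes of this group that the RefSeq table holds are shown because NKX2-1, a transcription factor of lung epithelium whose own transcript fell, is known to act at surfactant promoters. They are the 250 bases before the annotated start, read 5′ to 3′ on the gene's strand from RefSeq on GRCm38.p6 (chr14:41131538-41131787 for Sftpa1 and chr6:72304360-72304609 for Sftpb), with capitals marking each match to the core CTCAAG on either strand.
Sftpa1: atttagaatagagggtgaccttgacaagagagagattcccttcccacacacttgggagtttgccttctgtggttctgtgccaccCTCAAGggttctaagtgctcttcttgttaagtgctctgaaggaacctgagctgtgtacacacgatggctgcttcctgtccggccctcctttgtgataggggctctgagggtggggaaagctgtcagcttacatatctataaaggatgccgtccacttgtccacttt
Sftpb: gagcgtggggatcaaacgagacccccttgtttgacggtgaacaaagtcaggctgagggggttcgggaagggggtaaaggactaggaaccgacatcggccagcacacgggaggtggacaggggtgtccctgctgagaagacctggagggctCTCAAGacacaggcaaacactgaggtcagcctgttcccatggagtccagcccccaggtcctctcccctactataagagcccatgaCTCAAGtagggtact
Sftpa1 held 1 match, beginning 166 bases before the start, and Sftpb held 2, beginning 100 and 15 bases before it. Over the window from 250 bases before to 50 after the start, 21 of the 159 promoters matched among the genes that fell (13.2%) held the core, against 14.6% of the 11813 promoters of all genes tested and 16.2% of all 27025 promoters of that length. Among the alveolar type 2 markers 4 of 15 held it (26.7%), or 2 of 15 (13.3%) in the 250 bases alone.

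Genes of surfactant lipid handling moved with the surfactant proteins. Abca3, the transporter that loads lipid into lamellar bodies, was at 524 and 509 CPM acutely, 324 at 4 weeks, and 160 and 167 late, against 186 to 266 in controls. Lamp3, a lamellar body membrane protein, was at 466 and 529 CPM acutely, 337 at 4 weeks, and 57.6 and 72 late. For Abca3 and Lamp3 alike the late pools lay below every control and the acute pools above every control. Slc34a2, the phosphate transporter of type 2 cells, fell by 2.92 ± 0.33, Lpcat1, which makes the main surfactant phospholipid, by 2.09 ± 0.26, and Lamp3 by 2.94 ± 0.36 on the log2 scale (SE, edgeR adjusted p 0.00611, 0.00915 and 0.00915). Enzymes of fatty acid synthesis fell as well, with Fasn from 447 and 500 CPM to 165 and 178, Elovl1 from 617 and 625 to 198 and 235, and Gpam from 48.1 and 52.8 to 20.4 and 21.3. All 3 lost the call without the 24-hour pool (adjusted p 0.0614 to 0.194), Gpam and Fasn also without the 1-week pool (0.0916 to 0.154), and Gpam without either late irradiated pool or either acute control pool (0.0613 to 0.088).

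The other type 2 markers that fell were Napsa, Cxcl15, Hc, Lyz1, Chil1, S100g and Etv5. Lyz1 shares sequence with Lyz2, so the split of fragments between those copies is uncertain. The 4 markers that did not pass were Scd1, Muc1, Slpi and Cd74. Cd74, which type 2 cells share with antigen-presenting cells, was higher late, at 13650 and 9003 CPM against 6054 and 6164. Summed over the 20 markers, the level was 71722 and 75597 CPM in the acute pools, 61639 at 4 weeks, and 23616 and 20314 in the late pools, against 39221 to 58592 in controls. Without the 24-hour pool 8 of the 16 markers lost the call (adjusted p 0.0535 to 0.157), without the 1-week pool 4 (0.055 to 0.113), without the 12-week pool 1 (0.105) and without the 32-week pool 3 (0.0901 to 0.109), and Napsa lost it without either acute control pool (0.0626 and 0.0635). Sftpc, Sftpa1, Sftpd, Lamp3, Slc34a2, Lpcat1 and Etv5 passed in each of these fits.

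**Figure D3:**
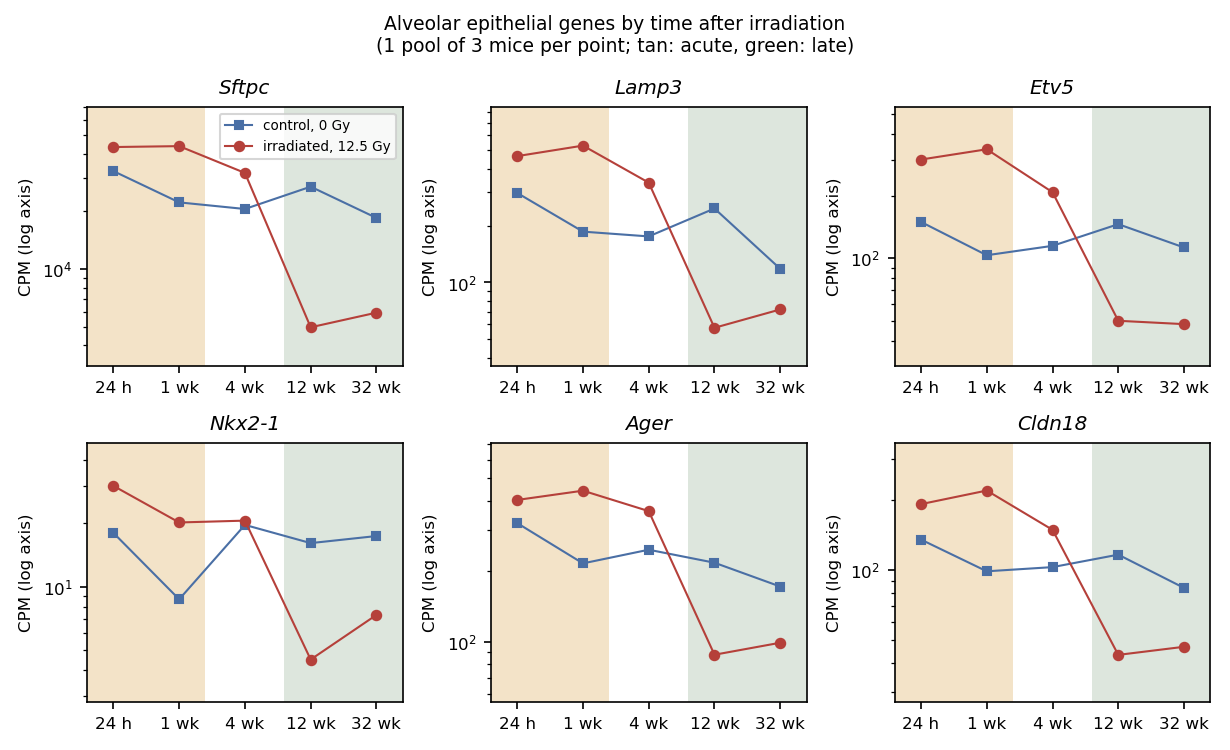
CPM on a log axis at each time for 6 genes of the alveolar epithelium, with irradiated pools as red circles and control pools as blue squares, 1 pool of 3 mice each. For Sftpc, Lamp3 and Etv5 the irradiated pools lie above all 5 controls at 24 hours and 1 week and below all 5 at 12 and 32 weeks.

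Several genes of growth factor signalling and transcription were among those that fell. They form no list, and were chosen after their values were seen. Etv5, a transcription factor that fibroblast growth factor signalling induces in type 2 cells, was at 300 and 336 CPM acutely, 208 at 4 weeks, and 50 and 48.1 late, against 104 to 150 in controls. Fgfr2, the receptor of that pathway in epithelium, was at 208 and 220 CPM acutely, 137 at 4 weeks, and 26.9 and 39.5 late. Spry1, a feedback inhibitor of the same pathway, was at 78.3 and 89.8 CPM acutely, 57.3 at 4 weeks, and 20.1 and 22.5 late. In all 3 genes both late pools lay below all 5 controls and both acute pools above them. Errfi1, an inhibitor of the epidermal growth factor receptor, fell by 2.73 ± 0.22 on the log2 scale (SE, edgeR adjusted p 0.00196), from 197 and 138 CPM to 26 and 24.2.

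Nkx2-1 was at 30.2 and 20.2 CPM acutely, 20.6 at 4 weeks, and 4.49 and 7.33 late, with controls from 8.7 to 19.7. Nkd1 and Notum, both feedback inhibitors of Wnt signalling, fell from 77.8 and 93.1 to 24.3 and 18.3 CPM and from 8.69 and 6.96 to 0.697 and 1.31 CPM (edgeR adjusted p 0.00477 and 0.0241). Met, the receptor of hepatocyte growth factor, and Bmp6, a bone morphogenetic protein, fell from 63.7 and 72.8 to 16.3 and 22.6 CPM and from 48.2 and 48.5 to 8.05 and 15.7 CPM. Without the 24-hour pool, Nkx2-1, Notum, Met and Bmp6 lost the call (adjusted p 0.128 to 0.251), and the same 4 lost it without the 1-week pool (0.0813 to 0.126). Nkx2-1 also lost it without the 12-week or 32-week irradiated pool and without the 12-week or 32-week control pool (0.0501 to 0.0828). Met lost it without the 12-week irradiated pool (0.0578), and Met and Notum without either acute control pool (0.0504 to 0.0551).

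Among genes averaging at least 5 CPM, the largest falls by fold were Ccl21a, Myh7, Tmem132d, Cdh16, Bex4, Trpv6, Tinag, Acoxl, Hes2, Pla2g1b, Kcne2 and Ppp1r1b. Acoxl, an acyl-CoA oxidase-like protein, was at 168.5 and 168 CPM acutely, 118 at 4 weeks, and 17.5 and 13.2 late, against 68.4 to 122 in controls. Tinag, a basement membrane antigen, was at 26.5 and 25.5 CPM acutely, 19.6 at 4 weeks, and 2.79 and 1.93 late. Kcne2, a potassium channel subunit, and Bex4 fell by 3.18 ± 0.40 and 3.56 ± 0.36 on the log2 scale (SE, edgeR adjusted p 0.00979 and 0.00456). Lgi3 and Bex2, which with Acoxl, Etv5 and Errfi1 had the smallest adjusted p of the lower genes in the test against controls (0.0651 to 0.0999), fell by 3.09 ± 0.27 and 3.02 ± 0.29.

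Myh7, a slow myosin heavy chain, was at 22.8 and 41 CPM acutely, 16.7 at 4 weeks, and 0.697 and 2.78 late, and its fragments may be split with the similar Myh6. All 16 cardiac muscle markers tested had higher fitted levels late, none of them past the test. Ccl21a, a chemokine of lymphatic vessels with near-identical gene copies, was at 131 and 157 CPM acutely and is listed at 0 in the other irradiated pools and in 4 of 5 controls, so the assignment of fragments among the copies is uncertain and no fold is given. Of the other 11 genes and Lgi3 and Bex2, 8 lost the call without the 24-hour pool (adjusted p 0.054 to 0.177), 6 without the 1-week pool (0.0511 to 0.117) and 2 without the 32-week pool (0.0806 and 0.0814). Cdh16 lost it without any 1 control pool, Tmem132d without either acute control pool and Hes2 without the 32-week control pool (0.0504 to 0.0712).

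Some alveolar type 1 transcripts fell in the same pools. Ager, a receptor abundant in type 1 cells, was at 405 and 443 CPM acutely, 362 at 4 weeks, and 88 and 99 late, against 172 to 322 in controls. Cldn18, a tight junction protein of alveolar epithelium, was at 192 and 219 CPM acutely, 149 at 4 weeks, and 43.2 and 46.8 late. For Ager and Cldn18 the late pools lay below every control and the acute pools above every control. They fell by 2.18 ± 0.23 and 2.19 ± 0.23 on the log2 scale (SE, edgeR adjusted p 0.00477 for each) and passed without any single pool.

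Aqp5, a water channel, fell from 111 and 117 to 22.3 and 43.7 CPM, Gprc5a from 111 and 89.1 to 24.2 and 38.1, and Emp2 from 240 and 262 to 125 and 116. These 3 lost the call without the 24-hour pool (adjusted p 0.134 to 0.194) and without the 1-week pool (0.085 to 0.153). Emp2 also lost it without either late irradiated pool or either acute control pool (0.0509 to 0.111), and Gprc5a without the 32-week control pool (0.0514). The other 12 type 1 markers did not pass, and the median over all 17 was −0.76, against −0.09 in controls and 0.02 over all genes tested. Summed over the list, the level was 2042 and 2664 CPM acutely and 1461 and 2791 late, so the late pools differed by more from each other than the phases did.

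No marker of ciliated or club and mucous cells fell. Epcam, an adhesion protein of most epithelial cells, was at 117 and 124 CPM acutely, 104 at 4 weeks, and 131 and 119 late, with a fitted change of 0.05 ± 0.18 on the log2 scale (SE, edgeR adjusted p 0.94). All 23 ciliated cell markers had higher fitted levels late, with a median of 1.30 against 0.67 in controls and pools that did not overlap in 7 of 23, where 21.2% of all genes did so in that direction. Scgb1a1, the secretory protein of club cells, ranged from 2700 to 15150 CPM over the irradiated pools and from 2706 to 11250 over the controls, and its phases overlapped. Gabrp, a channel subunit of airway epithelium, was at 4.99 and 6.2 CPM acutely, 29.9 at 4 weeks, and 14.9 and 54.4 late (edgeR adjusted p 0.0421). Gp2, a receptor of antigen-sampling epithelial cells, was at 1.53 and 1.68 CPM acutely, 12.7 at 4 weeks, and 16 and 46.7 late, against 0.496 to 5.98 in controls (adjusted p 0.0257). Gabrp and Gp2 each lost the call without either acute irradiated pool and without the 32-week control pool. Gabrp also lost it without the 32-week irradiated pool or any of the other acute and late control pools.

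Capillary endothelium showed a shallower fall. Ramp2, which gives the adrenomedullin receptor its specificity, was at 158 and 174 CPM acutely, 129 at 4 weeks, and 56.1 and 60.8 late, against 102 to 173 in controls. Prx, a scaffold protein of lung capillary cells, was at 45.6 and 59 CPM acutely, 52.8 at 4 weeks, and 21 and 20.1 late. Cldn5, the endothelial tight junction protein, was at 121 and 155 CPM acutely, 110 at 4 weeks, and 49.2 and 61.7 late. Unlike the surfactant genes, the acute pools of these 3 lay within or near the range of controls, and it was the late pools that stood below all 5 controls. All 3 fell, Prx by 1.35 ± 0.20 and Cldn5 by 1.31 ± 0.23 on the log2 scale (SE, edgeR adjusted p 0.0121 for Ramp2, 0.0171 for Prx and 0.0279 for Cldn5).

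Lyve1, a hyaluronan receptor of lymphatic vessels and some macrophages, fell from 166 and 151 to 49.4 and 51 CPM, and Tmem100 and Esam fell by 1.41 ± 0.28 and 1.21 ± 0.25. Eng and Acvrl1, co-receptor and receptor of the endothelial bone morphogenetic protein pathway, fell by 1.37 ± 0.26 and 1.10 ± 0.18 on the log2 scale (SE, edgeR adjusted p 0.0354 and 0.0239). Tmem100, Esam, Eng and Acvrl1 lost the call with limma at either pseudocount (adjusted p 0.0655 to 0.0956). Pecam1, present on all endothelium, was at 168 and 193 CPM acutely and 119 and 150 late and did not pass (adjusted p 0.307). Vwf, a large-vessel and platelet protein, was at 141 and 150 CPM acutely, 120 at 12 weeks and 342 at 32 weeks, where it stood above all other pools. All 8 named endothelial genes that passed lost the call without the 24-hour pool (adjusted p 0.0689 to 0.198), and all but Lyve1 without the 1-week pool (0.0695 to 0.171). Without the 12-week irradiated pool 4 lost it, without the 32-week irradiated pool 2, and without single control pools 2 or 3 (0.0503 to 0.0912 over these fits).

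Stromal transcripts were lower late, although few genes passed. All 24 fibroblast markers had lower fitted levels late, with a median of −1.01 against −0.29 in controls, and 20 of 24 did not overlap, where 23.2% of all genes did so in that direction. Foxf1 and Tbx4, transcription factors of lung mesenchyme, fell by 1.43 ± 0.22 and 1.59 ± 0.30 on the log2 scale (SE, edgeR adjusted p 0.018 and 0.0354). Pi16, a marker of adventitial fibroblasts, was at 138 and 87.1 CPM acutely, 53.9 at 4 weeks, and 43.5 and 19.6 late, against 54.9 to 124 in controls. Enpep, an aminopeptidase on the fibroblast list, was at 177 and 215 CPM acutely, 113 at 4 weeks, and 35.2 and 37.1 late, a fall of 2.44 ± 0.24 that passed without any single pool (adjusted p 0.00456 with all pools). Myh11, the smooth muscle myosin heavy chain, fell from 6.92 and 8.63 to 1.78 and 1.16 CPM, and Mylk of smooth muscle and Msln of the mesothelium fell by 1.21 ± 0.23 and 1.02 ± 0.19. Control lung changed by −1.04 for Msln, as much as irradiated lung did.

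No collagen or other matrix gene on the lists passed as higher late. The 27 collagen genes tested had a median of −1.08 late against acute and −0.60 in controls, and the only one that passed was Col5a1, a fibril-regulating collagen, which fell from 51.9 and 52.7 to 25.2 and 18.1 CPM (edgeR adjusted p 0.0356). Col1a1, the main fibrillar collagen, was at 311 and 222 CPM acutely, 165 at 4 weeks, and 154 and 57.5 late, and the controls went from 306 and 200 at the acute times to 97.6 and 130 at the late times. Col3a1 was at 1194 and 1221 CPM acutely and 752 and 261 late, with controls at 1274 and 1150 and then 505 and 412. The late values of both collagens were thus lower in control lung too, and the difference between the 2 changes was −0.18 for Col1a1 and 0.15 for Col3a1 (adjusted p 0.983 and 0.987). Mfap5 and Sparcl1, both secreted matrix proteins, fell by 1.52 ± 0.29 and 1.11 ± 0.19. Fn1, fibronectin, was at 871 and 826 CPM acutely, 667 at 4 weeks, and 1075 and 1098 late, above all 5 controls (435 to 599) throughout, and did not pass (adjusted p 0.332).

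Of the 10 mesenchymal genes named as falling, 9 lost the call without the 24-hour pool (adjusted p 0.0649 to 0.237), 9 without the 1-week pool (0.0695 to 0.168), 8 without the 32-week pool (0.061 to 0.0968) and 1 without the 12-week pool (0.057), Enpep being the one that kept it throughout. Without the 24-hour or the 1-week control pool 8 lost it (0.0581 to 0.0811) and without the 12-week or the 32-week control pool 4 (0.0583 to 0.0748). Scaling by total counts in place of TMM cost 6 of the 10 the call (0.0503 to 0.0639). Limma cost 6 of the 10 the call at either pseudocount (adjusted p 0.0583 to 0.161).

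Antibody transcripts made up the largest group of rises. Igkc, the constant part of the κ light chain, was at 512 and 476 CPM acutely, 790 at 4 weeks, and 1912 and 4457 late. Jchain, which joins IgA and IgM subunits and is made by plasma cells, was at 54.6 and 27.2 CPM acutely, 52.1 at 4 weeks, and 290 and 1011 late. Igha, the IgA heavy chain, was at 84.8 and 56.1 CPM acutely, 175 at 4 weeks, and 256 and 1019 late. Both late pools lay above both acute pools in all 3 genes, and the 32-week pool was the highest each time. They rose by 2.69 ± 0.40, 3.99 ± 0.65 and 3.18 ± 0.61 on the log2 scale (SE, edgeR adjusted p 0.017, 0.0225 and 0.0372).

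Control lung had higher late levels of these transcripts as well, without a call. Igkc was at 676 and 1124 CPM in the acute controls and 2110 and 2854 in the late ones, Jchain at 39.6 and 91.4 and then 296 and 453, and Igha at 42.1 and 81.1 and then 256 and 443. The difference between the 2 changes was 1.23 for Igkc, 1.48 for Jchain and 0.67 for Igha on the log2 scale, with adjusted p of 0.706, 0.807 and 0.933 by edgeR. At 12 weeks the irradiated pool held 0.906 of the control's level of Igkc and 0.979 of that of Jchain, and at 32 weeks 1.56 and 2.23 times it.

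Of the largest rises by fold, 7 were variable segments (Igkv4-70, Igkv12-41, Ighv1-9, Igkv8-30, Igkv8-21, Igkv10-94 and Igkv1-110) and the others were Dntt, Ighg2b, Gp2, Jchain and Tpsb2. Variable segments are members of large, similar families, and their counts depend on how the authors' counting split fragments among copies. Ighg2b, the IgG2b heavy chain, was at 9.57 and 10.1 CPM acutely, 8.43 at 4 weeks, and 116 and 360 late, against 2.23 to 174 in controls. Ighv3-6 was at 2.65 and 3.85 CPM acutely and 30.3 and 28.7 late, whereas Igkv10-94 was at 9.06 CPM at 12 weeks and 49.2 at 32 weeks, so the late pools agreed closely for some segments and lay far apart for others. Of the 9 variable segments examined, all lost the call without the 24-hour pool (adjusted p 0.0535 to 0.272) and 8 without the 1-week pool (0.0674 to 0.193), Ighv3-6 being kept. Without the 32-week irradiated pool, and without each single control pool, 3 lost it (0.0599 to 0.0977).

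B cell transcripts were higher late with pools that did not overlap in 20 of 20 markers, where 21.2% of all genes did so in that direction. Their sum was 1781 and 2296 CPM acutely, 3359 at 4 weeks, and 5190 and 5930 late, against 2756 to 5503 in controls. Only Ighm and Fcrla passed. Cd79a, part of the B cell receptor, was at 129 and 191 CPM acutely, 312 at 4 weeks, and 381 and 255 late, with controls between 287 and 422. Both acute pools thus stood below all 5 controls, and the 4-week and late pools within or near their range (edgeR adjusted p 0.108). Tnfrsf13c, the receptor for the B cell survival factor BAFF, rose from 17.1 and 14.9 to 56.1 and 31.9 CPM (adjusted p 0.0462). All 10 of the constant segments and B or plasma cell genes named as rising (Igkc, Igha, Jchain, Ighm, Ighg2b, Iglc1, Iglc2, Mzb1, Fcrla and Tnfrsf13c) lost the call without the 24-hour pool (0.124 to 0.29) and without the 1-week pool (0.0741 to 0.187). Without the 12-week irradiated pool 2 lost it (0.0823 and 0.117), without the 32-week irradiated pool 5 (0.0625 to 0.272), and without any 1 control pool 5 (0.0568 to 0.085).

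**Figure D4:**
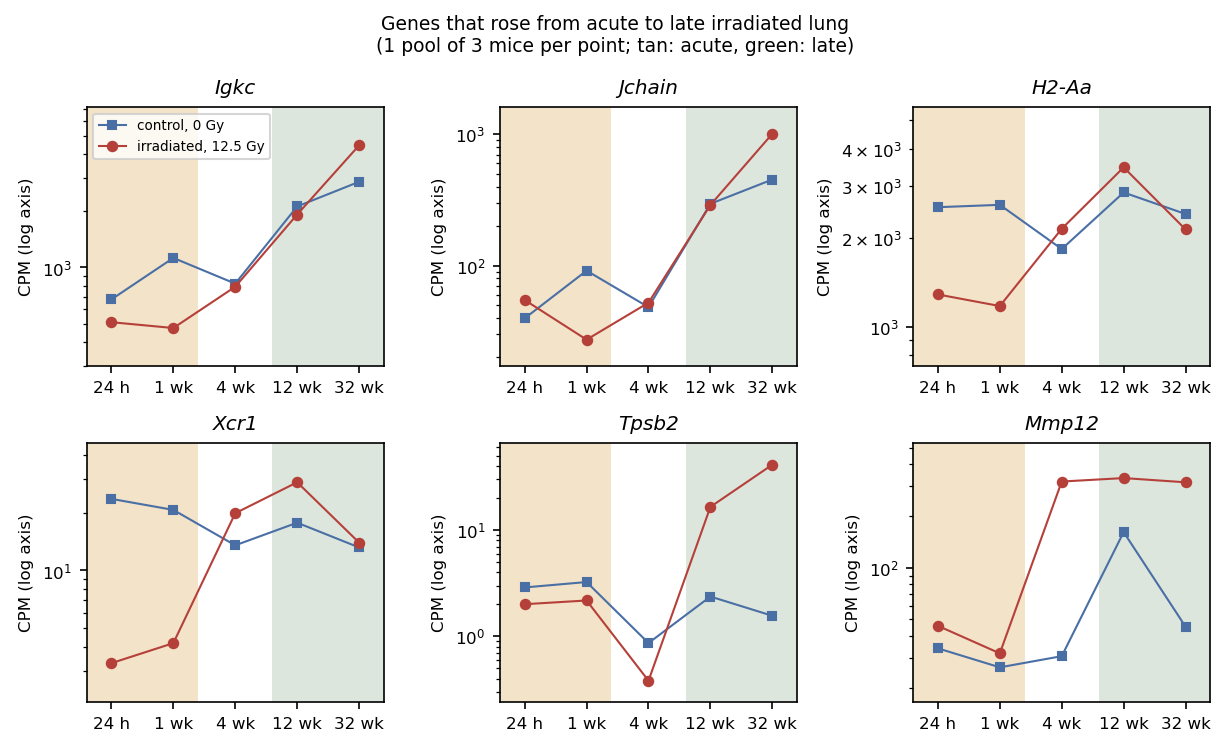
CPM on a log axis at each time for 6 genes that rose from acute to late in irradiated lung, with irradiated pools as red circles and control pools as blue squares, 1 pool of 3 mice each. Igkc and Jchain climb in both treatments, H2-Aa and Xcr1 start below the controls and reach or pass their range from 4 weeks, and Tpsb2 and Mmp12 end above all 5 controls.

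MHC class II genes were low in the acute pools and higher from 4 weeks on. H2-Aa, the α chain of the class II molecule I-A that presents peptides to helper T cells, was at 1285 and 1174 CPM acutely, 2143 at 4 weeks, and 3457 and 2132 late, against 1830 to 2843 in controls. Its partner H2-Ab1 was at 1916 and 1852 CPM acutely, 3582 at 4 weeks, and 4952 and 3215 late. H2-DMb1, part of the DM complex that loads peptides, was at 204 and 195 CPM acutely, 255 at 4 weeks, and 421 and 369 late. The acute pools of H2-Aa and H2-Ab1 lay below every control and those of H2-DMb1 at the lower end of the controls (203 to 305), at 0.507 and 0.455 of the matched control for H2-Aa. They rose by 1.19 ± 0.24, 1.12 ± 0.23 and 0.98 ± 0.16 on the log2 scale (SE, edgeR adjusted p 0.047, 0.0474 and 0.0214), and H2-Oa and H2-Ob, which restrain DM in B cells, rose by 1.26 ± 0.20 and 1.32 ± 0.27.

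Class II promoters share an arrangement in which an X box precedes a CCAAT box, the element that NF-Y binds. The 250 bases before the RefSeq start of 4 of these genes are shown on the gene's strand, on GRCm38.p6, at chr17:34287824-34288073, chr17:34152941-34153190, chr17:34092129-34092378 and chr17:34238655-34238904 in that order. Capitals mark every CCAAT on either strand (ATTGG when it lies on the other strand) and, in H2-DMb1, a match to a class II X box pattern.
H2-Aa: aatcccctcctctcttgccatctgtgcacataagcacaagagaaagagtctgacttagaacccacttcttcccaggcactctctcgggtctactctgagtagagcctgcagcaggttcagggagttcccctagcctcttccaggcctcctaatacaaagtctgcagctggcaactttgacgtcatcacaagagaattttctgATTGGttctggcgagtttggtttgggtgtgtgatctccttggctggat
H2-DMb1: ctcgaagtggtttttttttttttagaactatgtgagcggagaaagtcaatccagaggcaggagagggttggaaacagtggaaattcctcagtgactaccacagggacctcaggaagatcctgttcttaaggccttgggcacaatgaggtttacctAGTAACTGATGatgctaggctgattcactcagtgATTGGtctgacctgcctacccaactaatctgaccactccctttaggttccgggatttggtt
H2-Oa: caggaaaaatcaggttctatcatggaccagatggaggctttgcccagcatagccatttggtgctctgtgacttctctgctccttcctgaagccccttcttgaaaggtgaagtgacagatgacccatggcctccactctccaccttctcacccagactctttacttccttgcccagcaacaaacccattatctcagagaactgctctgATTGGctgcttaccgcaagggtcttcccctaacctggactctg
H2-Ob: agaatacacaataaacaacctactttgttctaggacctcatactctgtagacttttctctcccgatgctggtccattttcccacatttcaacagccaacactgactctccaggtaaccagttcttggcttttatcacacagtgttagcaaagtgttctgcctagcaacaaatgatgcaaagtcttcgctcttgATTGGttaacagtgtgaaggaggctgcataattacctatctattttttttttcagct
Each of the 4 held exactly 1 CCAAT box, beginning 48, 61, 43 and 57 bases before the start. The X box pattern matched in H2-DMb1 alone, 95 bases before the start. Of the 15 genes on the dendritic cell and class II list with a promoter in the table, 5 held a CCAAT box within the 250 bases (33.3%, against 34.5% of all 27025 promoters) and 2 the X box pattern (13.3%, against 0.285%).

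Dendritic cell genes passed beside the class II genes. Xcr1, the chemokine receptor of cross-presenting dendritic cells, was at 3.3 and 4.19 CPM acutely, 19.8 at 4 weeks, and 28.7 and 14 late, against 13.2 to 23.6 in controls. Itgae, the integrin CD103 of the same cells and of tissue T cells, was at 16.9 and 12.2 CPM acutely, 86.9 at 4 weeks, and 103 and 35.9 late, against 41.5 to 78.1. Both acute pools of these genes lay below all 5 controls. With Tpsb2, Gcsam and Ckb they were the 5 genes taken by smallest p as higher in the test against the change in controls, with differences of 3.02 for Xcr1 and 2.92 for Itgae on the log2 scale and adjusted p of 0.197 and 0.257 by edgeR. Gcsam, a germinal centre B cell protein, rose from 3.22 and 2.35 to 17.4 and 9.02 CPM. All 8 of H2-Aa, H2-Ab1, H2-DMb1, H2-Oa, H2-Ob, Xcr1, Itgae and Gcsam lost the call without the 24-hour pool (0.135 to 0.297) and without the 1-week pool (0.0813 to 0.196), and 4 without the 12-week pool (0.0693 to 0.0901). Without single control pools 5 to 7 of them lost it (0.0504 to 0.109).

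T cell transcripts were also low in the acute pools and higher from 4 weeks on, but control lung rose as well. The median over the 22 T cell markers was 1.02, against 0.67 in controls. For the dendritic cell and class II list it was 0.87 against −0.24. Cd3d was at 19.6 and 24.6 CPM acutely, 54.8 at 4 weeks, and 54.7 and 45.7 late, against 52.8 to 95.2 in controls. Cd3g, another chain of the T cell receptor complex, was at 31.5 and 39.5 CPM acutely, 71.7 at 4 weeks, and 79.3 and 64.5 late. The acute pools of both lay below every control, as did the 32-week pool of Cd3d. Cd3d and Cd3g rose by 1.18 ± 0.20 and 1.02 ± 0.20 on the log2 scale (SE, edgeR adjusted p 0.0269 and 0.0421). Of 9 thymocyte genes tested, which mark immature T cells of the thymus, all had higher fitted levels late and 1 passed. This was Dntt, the terminal transferase of immature lymphocytes, which rose from 0.804 and 1.51 CPM to 58.5 and 22.4 (adjusted p 0.0402). Rag1, the V(D)J recombinase, had 0 counts in both acute pools, 39.3 CPM at 4 weeks, and 41.9 and 7.4 late. Summed over the list, thymocyte genes were at 28.8 and 31.3 CPM acutely, 184 at 4 weeks, and 207 and 99.5 late, and between 62.3 and 413 in controls with no order in time. Their part in the T cell result was not tested. Cd3d, Cd3g and Dntt each lost the call without the 24-hour pool (0.218 to 0.308), the 1-week pool (0.0874 to 0.153) or either acute control pool (0.0508 to 0.0945). Dntt also lost it without either late irradiated pool (0.182 and 0.149) and Cd3g without the 12-week irradiated pool or either late control pool (0.0504 to 0.071).

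Mast cell proteases rose above the range of control lung. Tpsb2, a mast cell tryptase, was at 2.01 and 2.18 CPM acutely, 0.383 at 4 weeks, and 16.6 and 41.3 late, against 0.866 to 3.25 in controls. Cpa3, the mast cell carboxypeptidase, was at 5.55 and 3.1 CPM acutely, 4.67 at 4 weeks, and 26.1 and 62.2 late, against 6.42 to 13.8. Cma1, a mast cell chymase, was at 15 and 9.13 CPM acutely, 15.2 at 4 weeks, and 32.6 and 70.2 late, against 10.3 to 17.5. Both late pools lay above all 5 controls in the 3 genes, and the 4-week pool was near the acute level for Cpa3 and Cma1 and lower for Tpsb2. They rose by 3.78 ± 0.51, 3.35 ± 0.48 and 2.09 ± 0.41 on the log2 scale (SE, edgeR adjusted p 0.0102, 0.0136 and 0.0408).

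Fcer1a, the IgE receptor α chain of mast cells and basophils, rose from 0.483 and 1.17 to 5.34 and 10.6 CPM, and Prg2, the major basic protein of eosinophils, from 1.05 and 0.838 to 6.27 and 10.4 CPM. Of the 11 mast cell and basophil genes tested, 8 were higher late and the median was 2.32, against 0.09 in controls. Summed over the list, the level was 246 and 279 CPM acutely, 275 at 4 weeks, and 216 and 433 late, and these sums overlapped between the phases. In the test against the change in control lung Tpsb2 had an adjusted p of 0.15. Tpsb2, Cpa3, Cma1 and Fcer1a all lost the call without the 24-hour pool (0.0874 to 0.237) and without the 1-week pool (0.0791 to 0.181), and Cma1 and Fcer1a without the 32-week pool (0.107 and 0.0773) or any 1 control pool (0.0576 to 0.0853). Prg2 lost it without any of the 24-hour, 1-week and 32-week irradiated pools (0.0596 to 0.167).

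Few macrophage genes passed. Of 21 lipid-associated macrophage markers 16 had higher fitted levels late, with 1 that rose and 1 that fell, and of 20 alveolar macrophage markers 9 were higher, with 1 that fell. Mmp12, the macrophage elastase, was at 45.9 and 31.8 CPM acutely, 318 at 4 weeks, and 333 and 314 late, against 26.3 to 161 in controls. Its level had thus reached the late range by 4 weeks and stayed within 314 to 333 CPM, above all controls (log2 rise 3.06 ± 0.49 SE, edgeR adjusted p 0.0221). Spp1, osteopontin, was at 260 and 178 CPM acutely, 406 at 4 weeks, and 784 and 5518 late, against 171 to 628 in controls. The 2 late pools of Spp1 lay far apart, and the gene did not pass (3.85 ± 0.82, adjusted p 0.0581). Acp5, a lysosomal phosphatase of macrophages, rose from 108 and 88.6 to 184 and 318 CPM, and Psap, which encodes the saposins of lysosomal lipid breakdown, from 2654 and 1870 to 4442 and 5190 CPM, the late pools of both lying above all controls.

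Genes of resident alveolar macrophages showed no common direction, with a median of −0.18. Marco, a scavenger receptor of these cells, was at 382 and 285 CPM acutely, 124 at 4 weeks, and 57.2 and 150 late, and did not pass (edgeR adjusted p 0.0694). Fabp1, a fatty acid-binding protein, fell from 165 and 79.8 to 27.7 and 34 CPM. The apolipoprotein gene Apoc1, which is on the lipid-associated macrophage list, fell from 21.6 and 18.1 to 4.65 and 5.17 CPM. Mmp12, Acp5, Psap, Fabp1 and Apoc1 all lost the call without the 24-hour pool (0.12 to 0.177) and all but Fabp1 without the 1-week pool (0.0586 to 0.187). Without the 32-week pool Mmp12, Acp5 and Psap lost it (0.0764 to 0.117), and without single control pools Acp5, Psap and, for the 32-week control, Fabp1 (0.0504 to 0.108).

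Transcripts of the p53 response were higher acutely than late, and the best known of them declined at each later time. Cdkn1a, the cell cycle inhibitor p21 and a classical p53 target at chr17:29090976-29100727 of GRCm38, was at 519 and 275 CPM acutely, 185 at 4 weeks, and 110 and 82.5 late, against 48.2 to 75 in controls. It therefore stayed above every control even at 32 weeks, while its ratio to the matched control went from 6.92 and 3.77 to 2.28 and 1.21. Ephx1, a detoxifying hydrolase, was at 552 and 344 CPM acutely, 282 at 4 weeks, and 176 and 202 late, against 122 to 150 in controls. Plk2, a stress-responsive kinase, was at 79.9 and 79.8 CPM acutely, 64.8 at 4 weeks, and 29.3 and 38.9 late, against 30.8 to 43.9. The 3 genes fell by 2.04 ± 0.31, 1.24 ± 0.23 and 1.23 ± 0.22 on the log2 scale (SE, edgeR adjusted p 0.0171, 0.0328 and 0.0316).

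Of the 30 p53 targets tested, 26 were lower late, with a median of −0.86 against 0.04 in controls. Ccng1 was at 356 and 203 CPM acutely and 152 and 125 late (adjusted p 0.129), and Mdm2, the ubiquitin ligase that limits p53, was at 118 and 81.3 and then 68.8 and 96.4, with phases that overlapped. Cdkn1a lost the call without the 24-hour pool (0.0986) or the 32-week pool (0.0501). Ephx1 and Plk2 lost it without the 24-hour pool (0.199 and 0.191), the 12-week pool (0.0689 and 0.0565) or either acute control pool (0.0622 to 0.0752). Plk2 also lost it without the 1-week pool (0.122), and Ephx1 without the 32-week irradiated pool or either late control pool (0.0568 to 0.0636).

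**Figure D5:**
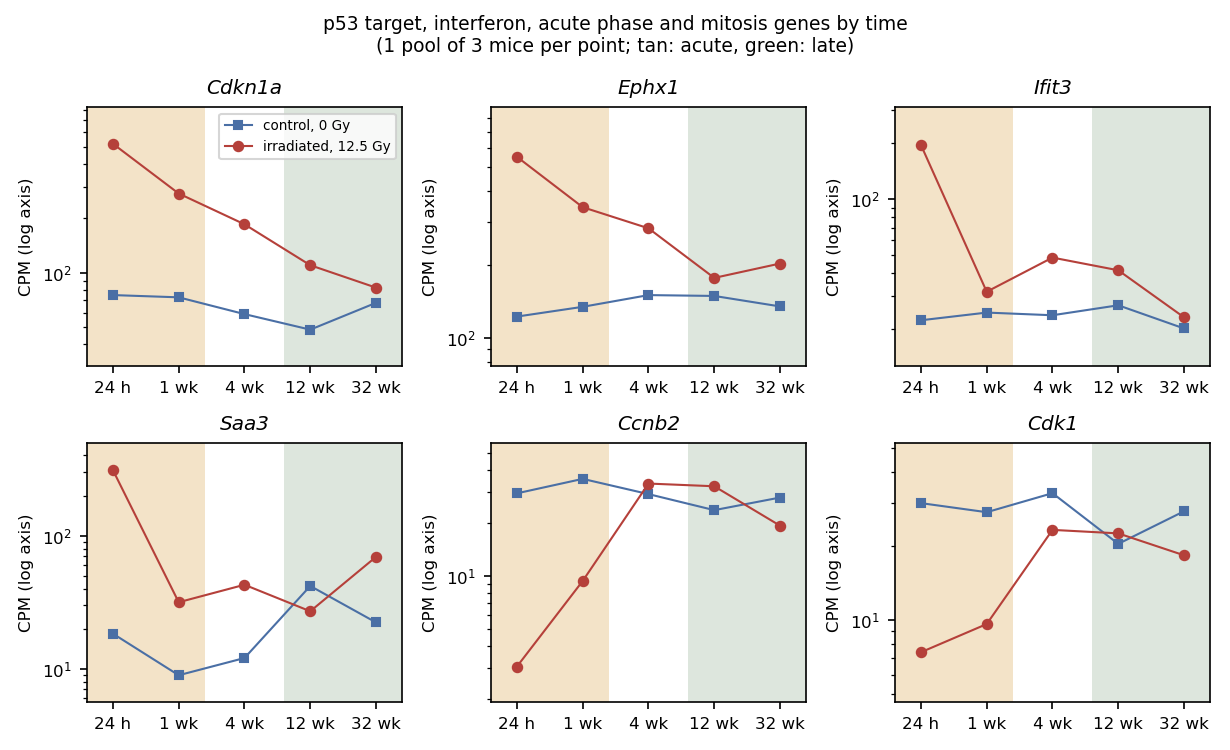
CPM on a log axis at each time for 2 p53 targets, an interferon-stimulated gene, an acute phase gene and 2 mitosis genes, with irradiated pools as red circles and control pools as blue squares, 1 pool of 3 mice each. Cdkn1a declines over all 5 times, Ifit3 and Saa3 are highest at 24 hours (196 and 310 CPM), and Ccnb2 and Cdk1 are below all controls at 24 hours and 1 week.

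Ifit3, Saa3 and Ccl2 were highest in the 24-hour pool among the irradiated pools. Ifit3, an interferon-induced antiviral protein, was at 196 CPM at 24 hours, 31.8 at 1 week, 48.5 at 4 weeks, and 41.4 and 23.1 late, against 20.2 to 26.9 in controls. Saa3, an acute phase apolipoprotein, was at 310 CPM at 24 hours, 31.6 at 1 week, 42.7 at 4 weeks, and 27 and 69.2 late. Ccl2, a monocyte chemoattractant, was at 33.7 CPM at 24 hours and between 5.61 and 12.6 in the other irradiated pools. None of the 3 passed, and each had overlapping phases (edgeR adjusted p 0.213, 0.359 and 0.26). The median of the 34 interferon-stimulated genes was −0.70 with all pools and 0.20 without the 24-hour pool. The 43 chemokine, cytokine and acute phase genes tested summed to 6228 and 4927 CPM acutely, 4881 at 4 weeks, and 3617 and 5739 late. Of these 43 genes 3 fell, among them Cxcl15 and Hc, which are also counted above as alveolar type 2 markers that fell. Without overlap, 14 of the 43 were lower late, where 23.2% of all genes were. Il33, an epithelial alarmin, did not share this course: it was at 119 and 143 CPM acutely, 102 at 4 weeks, and 36.8 and 32.1 late (log2 fall 1.93 ± 0.33, adjusted p 0.0261), losing the call without the 24-hour (0.123), 1-week (0.107) or 32-week pool (0.0722).

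Cell division genes were low in the first week. Cdk1, the kinase that drives entry into mitosis, was at 7.4 and 9.64 CPM acutely, 23.3 at 4 weeks, and 22.5 and 18.4 late, against 20.4 to 32.8 in controls. Ccnb2, its cyclin partner, was at 3.06 and 9.38 CPM acutely, 33.6 at 4 weeks, and 32.5 and 19.4 late, against 23.7 to 35.8. Both acute pools and the 32-week pool of each lay below every control, and the 4-week pool was above both late pools. Neither passed (log2 changes 1.26 ± 0.27 and 2.06 ± 0.46, edgeR adjusted p 0.0564 and 0.0659). All 34 mitosis and spindle genes had higher fitted levels late, 26 of 34 without overlap (where 21.2% of all genes did so in that direction) and none past the test, with a median of 1.29 against 0.15 in controls. Those 34 genes summed to 188 and 413 CPM acutely, 961 at 4 weeks, and 874 and 564 late, against 652 to 882 in controls. The 38 replication genes had a median of 0.64 against −0.04. In the repair list Brca1 rose from 0.483 and 1.51 to 5.58 and 10.3 CPM (adjusted p 0.0361), a call that was lost without any of the 8 acute and late pools except the 12-week irradiated pool (0.0622 to 0.23).

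The promoters of Cdk1 and Ccnb2 are shown because genes of mitosis are known for paired CCAAT boxes with a cell cycle homology region, TTTGAA, near the start. They are the 250 bases before the RefSeq start on the gene's strand, on GRCm38.p6, at chr10:69352913-69353162 and chr9:70421555-70421804, with capitals marking CCAAT and TTTGAA on either strand.
Cdk1: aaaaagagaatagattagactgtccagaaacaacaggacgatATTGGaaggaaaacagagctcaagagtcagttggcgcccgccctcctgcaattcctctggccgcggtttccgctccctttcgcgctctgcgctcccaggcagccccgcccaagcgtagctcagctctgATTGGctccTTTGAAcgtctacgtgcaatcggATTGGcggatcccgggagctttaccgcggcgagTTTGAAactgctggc
Ccnb2: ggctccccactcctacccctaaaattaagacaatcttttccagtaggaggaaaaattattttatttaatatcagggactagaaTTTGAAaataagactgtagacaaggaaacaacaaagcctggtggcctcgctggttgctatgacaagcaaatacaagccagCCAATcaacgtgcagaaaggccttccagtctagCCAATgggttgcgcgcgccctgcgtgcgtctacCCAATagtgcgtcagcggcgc
Cdk1 held 3 CCAAT boxes, beginning 208, 80 and 48 bases before the start, and 2 TTTGAA matches at 71 and 15. Ccnb2 held 3 CCAAT boxes at 87, 54 and 21 and 1 TTTGAA match at 167. Of the 29 mitosis genes with a promoter in the table, 24 held a CCAAT box in the window from 250 bases before to 50 after the start (82.8%, against 37.9% of all 27025 promoters) and 22 held TTTGAA (75.9%, against 18.1%). Within the 250 bases alone, 24 and 10 did (82.8% and 34.5%, against 34.5% and 16.3%).

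The 4-week pool, which did not enter the contrast, lay closer to the acute pools for most genes that fell. On the log2 scale its position was nearer the acute mean for 180 of the 221 genes that fell and nearer the late mean for 41, with a median position of 0.27, where 0 is the acute mean and 1 the late mean (quartiles 0.2 and 0.42). It lay strictly between the phases for 202 of them. For the 87 genes that rose the median was 0.36, with 58 nearer the acute mean and 29 nearer the late mean. As shares, 81.4% of the genes that fell and 66.7% of those that rose lay nearer the acute mean. Over all genes whose pools did not overlap, 54.6% of those lower late and 46.4% of those higher late did so. By list, the median position was 0.2 for alveolar type 2 and 0.48 for alveolar type 1 markers, 0.05 for mast cell and basophil markers, 1.26 for alveolar macrophage markers and 1.29 for mitosis genes. It was 0.92 for B cell, 1.38 for T cell and 0.27 for plasma cell markers, and 0.97 for dendritic cell and class II genes, so that lists of lymphoid cells differed among themselves. Since this is 1 pool, the order of these lists at 4 weeks has no test. The position of alveolar macrophage markers says little, because their median change was only −0.18, with 9 members higher and 11 lower late. Their summed level was 5968 CPM at 4 weeks, below the acute pools (23122 and 13663) and the late pools (22194 and 28669).

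The genes that fell took 8.22% and 8.49% of all counts in the acute pools, 6.75% at 4 weeks, and 1.84% and 1.85% in the late pools, against 4.31% to 6.4% in controls. Of these 221 genes, 177 had both late pools below all 5 controls (80.1%, against 9.09% of all genes tested), 169 had both acute pools above all 5 (76.5%, against 11.4%), and 129 had both (58.4%, against 1.34%). The genes that rose took 0.766% and 0.703% of counts acutely, 1.28% at 4 weeks, and 2.09% and 2.45% late, against 1.18% to 1.9% in controls. Of these 87 genes, 61 had both acute pools below all 5 controls (70.1%, against 9.13% of all genes tested), 28 had both late pools above all 5 (32.2%, against 8.13%), and 14 had both (16.1%, against 0.304%). These genes were chosen on the same irradiated pools, so that the shares describe the calls and have no test.

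The 2 pools of a phase were not alike. Among 11893 genes of at least 5 CPM, 3.85% differed by over 2-fold between the 24-hour and 1-week irradiated pools (95% Clopper-Pearson interval 3.51% to 4.21%) and 9.75% between the 12-week and 32-week pools (9.23% to 10.3%). In controls the same pairs gave 1.46% and 5.44%. Between phases the share ran from 9.2%, for 1 against 12 weeks, to 13.9%, for 24 hours against 32 weeks, and in controls from 3.82% to 4.75%. These intervals cover counting error over genes only, and genes are not independent. A slope over log2 days across the 5 irradiated pools passed for no gene with edgeR (smallest adjusted p 0.0565), with 1285 genes higher (7.66%) and 1209 lower (7.2%) at an unadjusted p below 0.05, while DESeq2 called 1079. The slope uses the same pools as the contrast, so that it is no independent check of the genes named.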

How the data were processed

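RNA of whole-lung cell suspensions was isolated with a Qiagen RNeasy PLUS kit, amplified with Clontech ultralow chemistry and made into NexteraXT libraries, per the labels' protocols. These steps do not mark the strand, so overlapping antisense genes cannot be told apart, and with no molecular identifiers named, PCR copies count as fragments and intervals and floors cover counting error only. The submitters' processing notes name Trimmomatic 0.32, STAR 2.4.2a, Cufflinks 2.0.2, Cuffdiff and GRCm38.p4. Per gene, the authors deposited expected counts, which need not be whole, and FPKM (values per length and depth). Of 45786 gene identifiers, 45223 had a symbol in GENCODE M21. Libraries had been brought to a common scale before they were deposited: the smallest unit of their expected counts was 0.576 to 1.38, and 76.3% to 82% of values were whole multiples of it within 0.05. No table column lacked a sample (0), and libraries with identical values numbered 0.

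Expected counts were rounded and tested with edgeR 4.0.16 in R 4.3.3 (TMM, robust quasi-likelihood, 2-sided F tests, Benjamini-Hochberg over all genes tested). Genes needed the equivalent of 10 counts in at least 2 libraries and 15 in all. All 10 pools entered in 6 cells of treatment by phase, which left 4 residual degrees of freedom at a common dispersion of 0.07, so the controls lent spread. The slope used the 5 irradiated pools and 3 degrees of freedom. Alternatives used DESeq2 1.42.0 and limma 3.58.1 on log2(FPKM + 1) and log2(FPKM + 0.1). The test was also run on simulated data in which the 2 pools of a phase shared a mean. That simulation held no change over time within a phase, so it cannot show how sound the calls are in this design. The phases, the 41 gene lists and the tests were chosen with earlier results of these data known. Named genes were the 12 largest log2 folds of each direction among calls of at least 5 CPM whose pools did not overlap, 5 of each direction for the difference from controls (by smallest p, as none passed), up to 4 of smallest p from each list, and a set of fixed genes. Every other gene named was chosen after its values were seen. The core CTCAAG and the class II X box pattern were added after the calls were seen. Promoters came from RefSeq on GRCm38.p6.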

Additional observations from a re-analysis of the deposited data

Results flagged for a closer look

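Across 92 summary measures of the 5 irradiated or the 5 control pools, 7 had 1 pool set apart from the other 4 by more than Dixon's 95% critical value of 0.71 for the gap over the range, where about 1 in 20 would be set apart by chance. The 24-hour irradiated pool was the highest of the irradiated pools in the share of mitochondrially encoded counts (1.719%), in the summed level of interferon-stimulated genes (3360 CPM), of circadian clock genes (692 CPM) and of neutrophil markers (1382 CPM). In the same order, the 24-hour control pool was at 1.693%, and at 1272, 484 and 856 CPM. The 32-week irradiated pool was the highest in the summed level of cholesterol synthesis and uptake genes (2223 CPM) and of lipid-associated macrophage markers (27720 CPM). The 32-week control pool was the lowest of the controls in NK cell and cytotoxic markers (529 CPM). Each of these pools is the only one of its time and treatment.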

How the results depend on the processing

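Each phase rests on 2 pools of different times, so the number of calls moved widely with the fit and with the pools kept. RLE scaling, total scaling, the library step, limma and a filter within treatments gave counts within 1.5 times of the 308 in irradiated lung. Of the 308 genes, however, limma called only 190 on log2(FPKM + 1) and 193 on log2(FPKM + 0.1). No filter on low counts gave 1679 calls, DESeq2 1011 and the 5 irradiated pools alone 40. The 4-week pool counted as acute gave 173 and the same pool counted as late 2. Leaving out 1 irradiated pool gave 27 (24 hours) to 707 (12 weeks). Leaving out 1 control pool, an alternative chosen after seeing the data, gave 139 (24 hours) and 145 (1 week), against 225 and 208 for the late controls. The cause was not tested for any of these.

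In control lung, 0 calls became 193 with no filter, 23 with DESeq2 and 1 with limma at either pseudocount, and leaving out pools gave 0. For the difference between irradiated and control change, 0 calls became 2 with total scaling, 364 with no filter, 124 with DESeq2, 3 and 1 with limma (FPKM + 1 and FPKM + 0.1), and 0 to 6 without single pools. For the slope, 0 calls became 55 with no filter, 1079 with DESeq2, 7 and 25 with limma, 29 over the rank of the time, and 0 to 377 without single pools. No paired analysis was possible because the labels number no replicates. A block for the matched time could be fitted for the difference alone and gave 0 calls. The share of genes with the 4-week level nearer the acute mean was 54.6% (lower late) and 46.4% (higher late) over all genes whose pools did not overlap, against 81.4% and 66.7% over the calls.

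Of 110 passing genes in the text, 17 kept the call under every alternative run for single genes. With limma the call was lost by 34 on log2(FPKM + 1) and by 31 on log2(FPKM + 0.1). The call was lost by 90 without the 24-hour pool, 78 without the 1-week pool, 20 without the 12-week pool, 39 without the 32-week pool, 82 in the irradiated pools alone and 12 with total scaling.

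Some list medians changed sign when 1 irradiated pool was left out, and are given as ranges over those fits: interferon-stimulated −1.23 to 0.20, cytokine −0.70 to 0.11, cholesterol −0.02 to 0.64, Nrf2 −0.15 to 0.70, heat shock −0.40 to 0.29, ribosomal −0.03 to 0.46, NK −0.73 to 0.13, alveolar macrophage −0.35 to 0.10, lipid-associated macrophage −0.15 to 0.75, neutrophil −0.31 to 0.44 (0.03 with limma on FPKM + 0.1), transitional epithelium −0.44 to 0.45 and sex-linked −0.04 to 0.75. The same held for single genes that did not pass: Mdm2 −0.53 to 0.02, Ifit3 −2.60 to 0.02, Irf7 −1.73 to 0.14, Ccl2 −2.47 to 0.11, Saa3 −2.69 to 0.61, Tgfb1 −0.49 to 0.04, C4b −0.16 to 0.01 and Vwf −0.27 to 1.26.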
